A study of Canis lupus familiaris with 11 samples.

Results

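The stromal vascular fraction (SVF) of canine visceral fat was described as it stood before any treatment, from the 4 arrays whose titles say that the cells were not incubated. They are 4 of the 11 arrays of the series. On them, the 16545 features that name a single gene, out of 32391 features on the array, were ranked by their mean log2 level, and the position of each was read as a percentile, the share of the 16545 with a mean at or below its own. SVF is the pellet of cells left when adipose tissue is digested with enzymes and the floating fat cells are drawn off. It holds fibroblast-like stromal and progenitor cells, endothelial cells, the pericytes and smooth muscle cells that wrap small vessels, and immune cells, of which macrophages are a large part in fat. Stromal cells make collagen and the small proteoglycans that organise it, and the progenitors among them can turn into fat cells, which is why SVF is used as a cell therapy.

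The series profiled 3 kinds of preparation. PRP-SVF was visceral SVF of dogs 2 and 3 treated with photo-activated platelet-rich plasma and then held for 6 h at 37 °C, with 4 arrays. Untreated SVF came from the same dogs, was digested by the same company with its own undisclosed method and was not incubated, with 4 arrays. Thawed SVF came from another dog, a 6-year-old neutered male Labrador, whose visceral fat in portions of about 20 g went to companies A, B and C, with 1 array each after about 1 month frozen. Titles number the animals of the other arrays as dogs 2 and 3, but their labels carry one description, a German Shepard mix, neutered male, 10 years old. Whether they are separate animals is thus known from the numbers alone, and a split written below as dog 2 and dog 3 is a split between those numbers. Nothing states that the 2 samples per dog were prepared separately, so the spread among the 4 untreated arrays, written as a standard deviation (SD, n = 4) below, covers 2 dogs with 2 samples each and may be partly technical. The 4 arrays were close to one another: their levels correlated across single-gene features at 0.965 to 0.987, and any pair shared 74 to 87 of its top 100 features. Such a correlation is across genes, which are not independent replicates.

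A level here is array brightness. It depends on the probes as well as on the amount of mRNA, so a position near the bottom does not show that a gene is silent, and neighbours in the order cannot be told apart by amount. Of the ribosomal proteins, which every cell needs in large quantity, 40 of the 59 measured lay in the top 10% of features, but RPL23 averaged 3.05, at percentile 1.09. The cause of such low values was not tested. Of the 516 genes carried by several single-gene features, 110 (21.3%) had features more than 2 log2 units apart, with a median gap of 0.910. RPS23 stood at 13.06 on one feature and 4.55 on another. Each gene was therefore placed by its brightest feature. Mean levels ran from 2.32 to 13.86, with a median of 7.67, and 10.11 marked the edge of the top 10%.

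**Figure D1:**
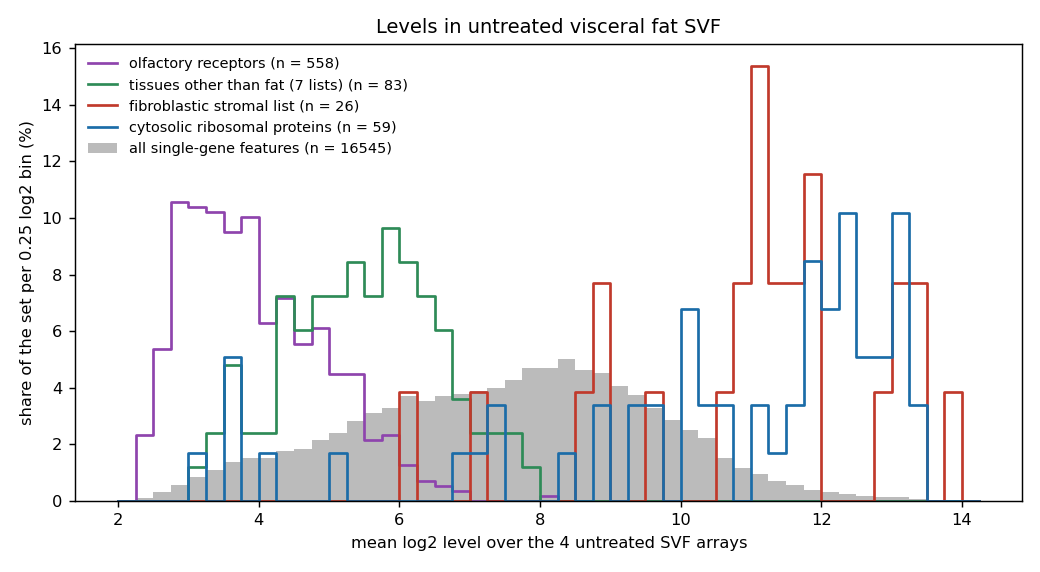
Distribution of mean log2 levels over the 4 untreated SVF arrays (horizontal axis) for all single-gene features (grey bars) and 4 sets (lines), each as a share of its set per bin. Olfactory receptors had a median of 3.78 and the markers of other tissues one of 5.56, while most fibroblastic stromal genes and ribosomal proteins lay above 10, with a tail of dim ribosomal features at the left.

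Stromal matrix genes led the 7 lineage markers. LUM encodes lumican and DCN encodes decorin, small proteoglycans that fibroblasts lay down along collagen fibrils. LUM read 13.73 and 13.59 in dog 2 and 13.90 and 13.86 in dog 3, and at rank 3 it was the highest of the markers. DCN read 13.37 and 13.32 in dog 2 and 13.63 and 13.62 in dog 3 (rank 11). Both were a little higher on the dog 3 arrays, and LUM exceeded DCN on all 4.

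LYZ, the lysozyme of macrophages and other myeloid cells, read 13.23 and 12.77 in dog 2 and 13.28 and 12.34 in dog 3 (rank 46). JCHAIN, which joins antibody units secreted by plasma cells, read 12.71 and 12.53 in dog 2 and 12.93 and 12.83 in dog 3 (rank 64). LYZ was lower on replicate 2 than on replicate 1 in each dog, and it exceeded JCHAIN on 3 of the 4 arrays. The mean gap over all 4 was 0.15, less than the SD of LYZ of 0.44.

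PECAM1, an adhesion molecule of endothelial cells, read 12.69 and 12.80 in dog 2 and 11.73 and 11.62 in dog 3 (rank 135). ADIPOQ, the hormone adiponectin made by mature fat cells, read 12.73 and 12.72 in dog 2 and 11.86 and 11.38 in dog 3 (rank 138). Their means of 12.21 ± 0.62 and 12.18 ± 0.67 (SD, n = 4 each) could not be ordered, since each was the higher on 2 of the 4 arrays. RGS5, a pericyte regulator of G-protein signalling, came lowest with 11.41 and 11.63 in dog 2 and 10.67 and 10.75 in dog 3, at percentile 96.8. For PECAM1, ADIPOQ and RGS5 both dog 2 arrays lay above both dog 3 arrays, so the 4 values fall in pairs by the dog number in the titles. LUM, DCN and JCHAIN fell in pairs the other way, with both dog 3 arrays above both dog 2 arrays. LYZ did not split by dog. All 7 markers thus stood in the top 10% of features. They were chosen with earlier results of these data known, so their position is a description and no test of the tissue label. PECAM1, RGS5, LYZ and JCHAIN were each the highest of their list. In those lists 6 of 20 endothelial, 2 of 15 pericyte, 10 of 17 macrophage and 2 of 15 B and plasma cell genes reached the top 10%. ADIPOQ marks mature adipocytes, which the preparation is meant to remove.

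**Figure D2:**
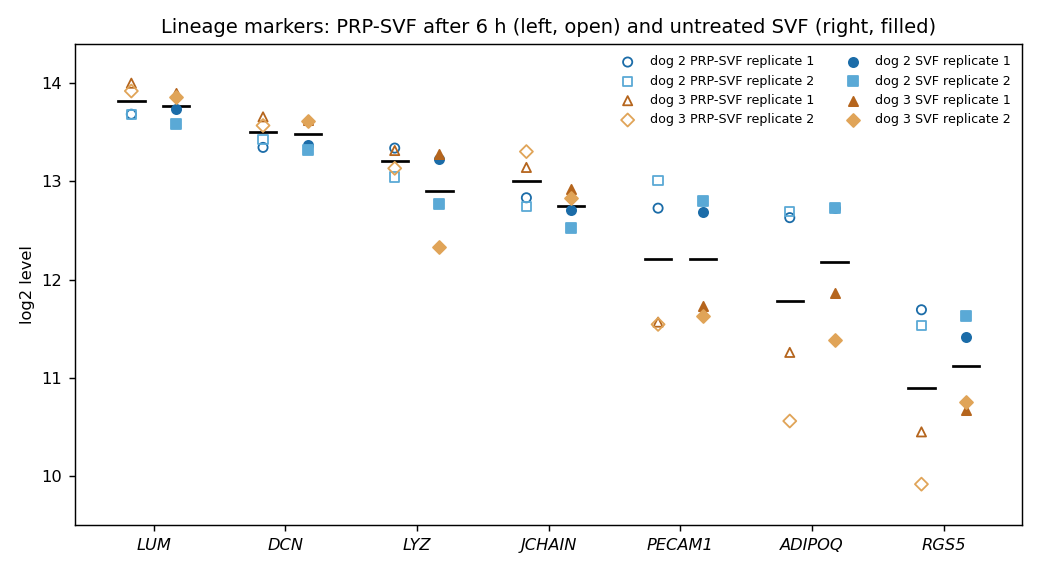
Log2 levels of the 7 lineage markers by array, with PRP-SVF after 6 h at the left (open symbols) and untreated SVF at the right (filled symbols). Horizontal bars are means of 4 arrays. In both preparations PECAM1, ADIPOQ and RGS5 are higher in dog 2, and LUM, DCN and JCHAIN are higher in dog 3, without overlap.

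The brightest single-gene feature of untreated SVF was COX1, a catalytic subunit of cytochrome oxidase encoded in the mitochondrial genome, at 13.86 ± 0.17. EEF1A1, which delivers tRNAs to the ribosome, followed on separate features at 13.81 ± 0.050 and 13.72 ± 0.062. After LUM came the galactose-binding lectin LGALS1 at 13.67 ± 0.10, the cytoskeletal actin ACTB at 13.66 ± 0.16 and the mesenchymal intermediate filament VIM at 13.61 ± 0.059. The 30 highest features named 26 genes. In role they were ribosomal proteins (RPS6, RPLP0, RPL37, RPS4X and RPL19), immediate early genes (FOS, JUNB, JUN, FOSB, EGR1 and DUSP1), chaperones (HSP70 and HSPA8), stromal products (LUM, DCN, GSN, MFAP5 and DPT) and the chemokine CXCL12. TXNIP, an inhibitor of thioredoxin, and TMSB10, an actin-binding peptide, completed them.

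Order between neighbours within these 30 was mostly not resolved, though features further apart could keep theirs, as LUM did over DCN on all 4 arrays. Only 1 of the 29 gaps between neighbours exceeded the larger SD of the pair, and the level dropped by 0.71 over the whole set, a 1.64-fold range in brightness. Membership was firmer: all 30 features stood within the top 100 of every array, and the poorest rank any of them took on an array was 46. RPLP0 held 2 and RPL37 held 3 of the places, with 2 of the RPL37 features carrying identical values. Ribosomal proteins have many near-identical pseudogene copies, so the brightness of a single member is uncertain.

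**Figure D3:**
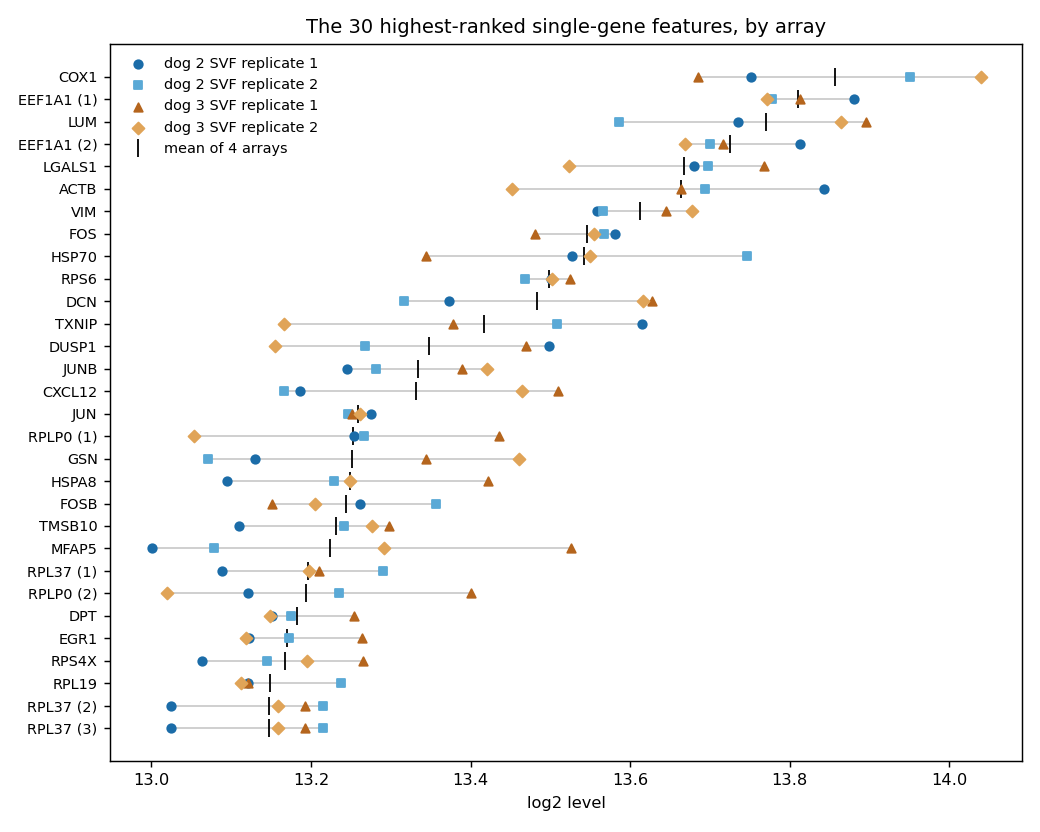
Log2 level of the 30 highest-ranked single-gene features on each of the 4 untreated SVF arrays, highest at the top, with the mean as a vertical tick. The marks of neighbouring features overlap throughout, and JUN and RPS6 have the narrowest spread.

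The top 100 features carried 93 genes, and 66 of the 100 were in the top 100 of all 4 arrays. By list, 20 features were ribosomal proteins (16 genes), 10 belonged to the cytoskeleton list, 9 to the immediate early list and 7 to the stromal list (6 genes). The translation factor, heat shock and extracellular matrix lists gave 4 each. The 2 features named HSP70, at ranks 9 and 32, were in no list and are not in the heat shock count. A further 4 lineage lists supplied 1 feature each, as SCD for adipocytes, LYZ for macrophages, DLA-DRA for antigen presentation and JCHAIN for plasma cells. No endothelial, pericyte, T cell, mast cell or blood cell marker reached it. The border was fine, with the laminin chain LAMC1 inside at 12.4576 and the hexosamine enzyme GFPT2 just outside at 12.4573.

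Among the 32 features of the top 100 that belonged to no list were several secreted or membrane proteins. EFEMP1, a fibulin of the extracellular matrix, averaged 13.10, and the selenium carrier SELENOP averaged 13.05. GPNMB, a glycoprotein of lipid-handling macrophages and other cells, averaged 12.98, and CD36, a fatty acid transporter of adipocytes, macrophages and capillaries, averaged 12.97. NFKBIA, the inhibitor of NF-kappaB that the factor itself induces, stood at 12.70, and the stress-response factor ATF4 at 12.68. These genes were picked after their values were seen.

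Fibroblastic stromal and progenitor genes had the highest median of the lineage lists over the 4 arrays. Of its 26 members, all measured, 20 lay in the top 10% of features and 0 in the bottom 25%, with a median percentile of 97.2. Below LUM and DCN came GSN, which severs actin filaments and also circulates as plasma gelsolin, at 13.25 ± 0.18. MFAP5, a microfibril protein, read 13.22 ± 0.24, DPT (dermatopontin) 13.18 ± 0.049 and FBN1 (fibrillin) 12.77 ± 0.29. Collagen I was bright on both chains, with COL1A2 at 11.81 and COL1A1 at 11.77.

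The list also holds surface proteins used to isolate adipose progenitors. CD34, a progenitor and endothelial sialomucin, averaged 11.83 ± 0.28 and THY1 averaged 11.45 ± 0.50. PI16, known in mouse and human fat from a population of early interstitial progenitors, read 10.44 and 10.29 in dog 2 and 12.17 and 12.17 in dog 3. NT5E, the ecto-nucleotidase CD73 used to define cultured mesenchymal stromal cells, read 7.60 and 7.21 in dog 2 and 10.72 and 10.25 in dog 3. For both genes the arrays split by dog without overlap, so a mean over the 4 describes neither pair. The list's lowest member was SFRP2, a secreted Wnt modulator, at 6.04 ± 0.69, and DPP4, another progenitor marker, lay below the median of all features at 7.17 ± 0.42.

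Genes of mature adipocytes came next over the 4 arrays, but their place turned with the dog. On the dog 2 arrays alone their median percentile was 97.9, above the stromal 96.5, and on the dog 3 arrays alone it was 90.5, below the macrophage 92.8 and the stromal 97.9. Of 22 listed genes 19 were measured, 14 lay in the top 10% of features and all 19 lay above the median, with a median percentile of 96.0. The list's array medians ran from 88.7 to 97.9. SCD, which desaturates fatty acids, averaged 13.07 ± 0.47 with its high values in dog 3 (13.63 and 13.29) and lower ones in dog 2 (12.77 and 12.61). LPL, which frees fatty acids from circulating lipoproteins, read 12.77, 12.50, 12.21 and 11.89, with dog 2 given before dog 3. The lipid droplet coat protein PLIN4 averaged 12.09 ± 0.52, and CIDEA and CIDEC, which fuse lipid droplets, averaged 11.63 ± 0.54 and 11.21 ± 0.83. LEP, the satiety hormone leptin, read 11.86 and 11.34 in dog 2 and 11.02 and 10.69 in dog 3. The dog 2 arrays were the higher for every one of these except SCD. ACACB, an acetyl-CoA carboxylase, was lowest at 7.94 ± 0.58. How much of this signal came from whole adipocytes, from their RNA in the cell suspension or from cells turning into adipocytes was not tested.

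Endothelial genes were nearly all above the median but fewer were very bright. Of 20 measured, 19 lay above the median and 6 in the top 10%, with a median percentile of 82.4. The array medians ran from 71.5 to 91.6. CDH5, the cadherin of endothelial junctions, read 12.15 and 12.40 in dog 2 and 10.64 and 10.83 in dog 3. FLT1, a receptor for VEGF, read 11.70 and 11.86 in dog 2 and 10.37 and 10.17 in dog 3. Both show the same split as PECAM1. VWF, the clotting protein stored in endothelial granules, averaged 9.67 ± 1.1, and ECSCR was lowest at 6.54 ± 0.68. In bulk RNA, fewer cells of a type and less RNA per cell cannot be told apart.

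The pericyte and smooth muscle list had a median percentile of 70.0, with 9 of 15 members above the median and 2 in the top 10%. RGS5 led it, and PDGFRB, the receptor that draws pericytes to vessels, followed at 10.87 ± 0.16. ACTA2, the smooth muscle actin, read 10.00 and 10.30 in dog 2 and 8.74 and 9.02 in dog 3. Contractile genes sat lower: MYH11, the smooth muscle myosin, averaged 7.25 ± 1.4, CNN1 averaged 7.31 ± 1.1 and DES (desmin) averaged 6.19 ± 0.47. PDGFRB had a range of 0.37 over the 4 arrays, while MYH11 ranged over 2.86.

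The lymphatic list ran from percentile 98.7 down to 13.9, and the mesothelial list ran from percentile 80.6 down to 10.1. LYVE1 and PDPN, which lymphatic vessels share with macrophages and with fibroblasts, averaged 11.88 ± 0.67 and 11.83 ± 0.48. FLT4, next in the lymphatic list at percentile 73.1, read 9.35 and 9.95 in dog 2 and 7.98 and 8.31 in dog 3. PROX1, the factor that fixes lymphatic identity, averaged 5.08 ± 0.15, at percentile 13.9, and the whole list of 8 had a median percentile of 37.2. Visceral fat is covered by mesothelium, and of its 12 measured markers 4 lay in the bottom 25% and 0 in the top 10%. MSLN and ITLN1 were listed but not measured. HAS1, which makes hyaluronan, read 7.93 and 8.21 in dog 2 and 10.66 and 10.63 in dog 3. PRG4 (lubricin) read 6.56 and 6.04 in dog 2 and 9.94 and 9.77 in dog 3, while WT1 ran the other way with 7.55 and 7.35 in dog 2 and 5.83 and 5.44 in dog 3. KRT7 averaged 8.42 ± 0.44 and UPK1B was lowest at 4.65 ± 0.30. The list therefore did not move as a unit across the 4 arrays.

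Macrophage genes were the brightest of the immune lists. Of 17 measured, 16 lay above the median and 10 in the top 10%, with a median percentile of 92.8. Below LYZ came the lysosomal proteases CTSS at 11.74 ± 0.51 and LGMN at 11.12 ± 0.53. Scavenger and complement receptors of resident macrophages were bright too, with VSIG4 at 10.92 and MRC1 at 10.79. CD14, which binds bacterial lipopolysaccharide, averaged 9.93 ± 0.58, and MARCO was the single member in the bottom 25% at 5.30 ± 0.17. Genes for antigen presentation had a median percentile of 90.4 over 13 measured members. The class II chains DLA-DRA and DLA-DQA1 averaged 12.81 ± 0.48 and 11.57 ± 0.77 and their chaperone CD74 averaged 12.16 ± 0.47. All 3 were lowest on dog 2 replicate 2, where DLA-DQA1 read 10.47 against 11.69 or more on the others. B2M, the light chain of class I, averaged 11.53 ± 0.050.

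Lymphocyte genes ranked far lower. The T and NK cell list had 4 of 23 members above the median and 0 in the top 10%, with a median percentile of 37.1. CD2, an adhesion receptor of T cells, was highest at 8.86 ± 0.46. IL7R, through which interleukin 7 keeps T cells alive, read 8.17 and 6.57 in dog 2 and 9.63 and 9.18 in dog 3, and CCR7, which guides T cells to lymph nodes, averaged 8.25 ± 0.90. CD3E, a chain of the T cell receptor complex, averaged 6.14 ± 0.41, and KLRB1 was lowest at 2.72 ± 0.27. JCHAIN stood almost alone in the B and plasma cell list, where 3 of 15 members lay above the median. XBP1, the secretory factor that plasma cells share with other secreting cells, averaged 11.24 ± 0.15, and IRF4 averaged 9.02 ± 0.66. MZB1, a plasma cell chaperone, read only 7.05 ± 0.16, the B cell surface protein MS4A1 read 5.81 ± 0.68 and TNFRSF17 (BCMA) read 3.41 ± 0.25.

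Mast cells and blood cells completed the lineages. CPA3, a mast cell protease, read 10.32 and 10.87 in dog 2 and 8.68 and 9.19 in dog 3, and KIT, the receptor that sustains mast cells, averaged 8.79 ± 0.62. HDC, which makes histamine, averaged 6.22 ± 0.34, and the list's median percentile was 43.4. Neutrophil genes had 2 of 13 members above the median, with LCN2 at 8.54 ± 0.52, CSF3R at 7.87 ± 0.27 and MMP8 lowest at 5.31 ± 0.053. Platelet genes had a median percentile of 36.8: ITGB3, an integrin that other cells also carry, averaged 10.11 ± 0.82, GP9 averaged 8.19 ± 0.17 and CLEC1B averaged 4.83 ± 0.083. The erythroid list was the dimmest of the lineages at percentile 18.2, with GYPC at 9.28 ± 0.21, ALAS2 at 7.43 ± 0.22 and RHAG at 4.10 ± 0.11. The globins were not among its 7 measured members.

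**Figure D4:**
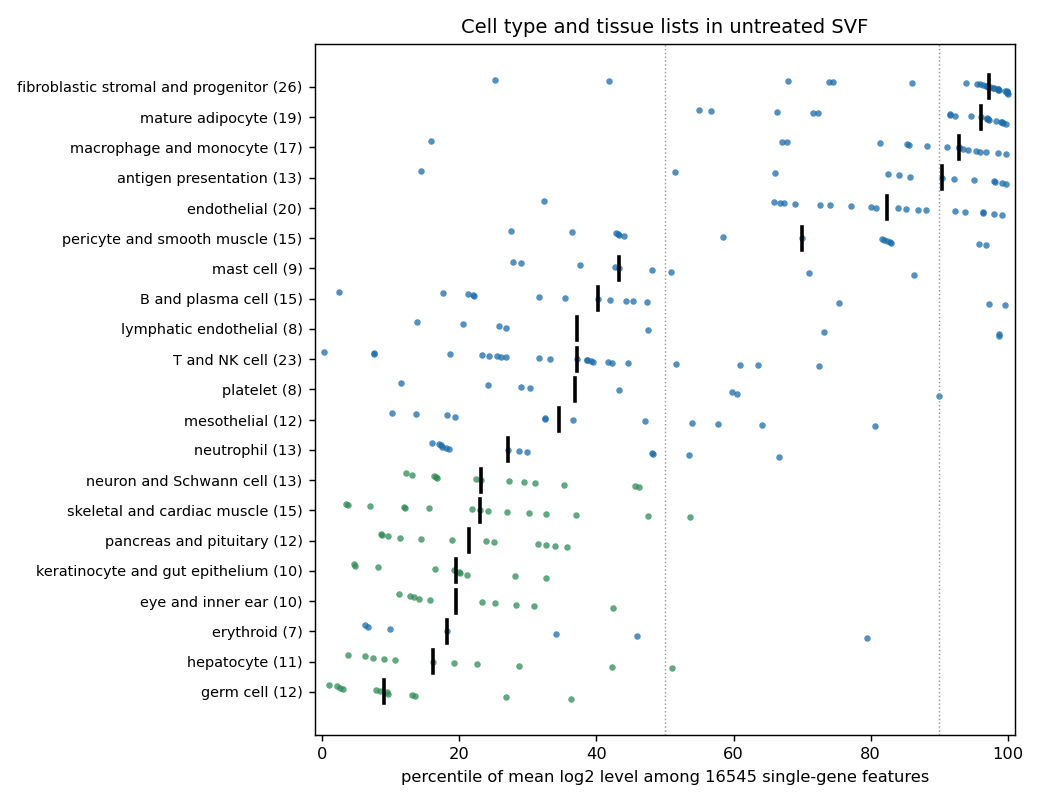
Percentile of each measured marker among the 16545 single-gene features, by list, with cell types of fat and blood in blue and tissues other than fat in green. Black bars are list medians, the number measured is in brackets, and the dotted lines mark the median and the top 10%. Stromal, adipocyte, macrophage, antigen presentation, endothelial and pericyte lists have medians of 70.0 or more, and every other list lies below the median of all features.

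Genes that most cells use heavily filled the upper end. The cytoskeleton list had a median percentile of 99.4, with 16 of 19 members in the top 10% and TUBA1A, a tubulin chain, lowest at 8.77 ± 0.41. Translation factors had a median of 97.3 over 17 members: EIF4A1, the helicase that opens mRNA for ribosomes, averaged 12.55 ± 0.056, and BTF3 was lowest at 8.07 ± 0.28. Ribosomal proteins had a median of 98.5. Genes of iron storage, redox control and glycolysis had a median of 95.7 over 20 members, led by the metallothionein MT2A at 12.85 ± 0.20, thioredoxin (TXN) at 12.84 ± 0.13 and the ferritin chain FTH1 at 12.67 ± 0.099. ALDOA, a glycolytic aldolase, was lowest at 7.12 ± 0.11. The 13 respiratory chain genes encoded in the nucleus had a median of 85.8 and all lay above the median of features, from the ATP synthase chain ATP5F1B at 12.02 ± 0.18 to NDUFV1 at 8.90 ± 0.22.

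Immediate early genes, which cells switch on within minutes of a stimulus without making new protein, were bright as a group. All 23 measured lay above the median and 19 in the top 10%, with a median percentile of 96.9. FOS read 13.58 and 13.57 in dog 2 and 13.48 and 13.55 in dog 3, and JUN, its partner in the AP-1 factor, spanned only 0.028 over the 4 arrays around 13.26. DUSP1, a phosphatase that turns off MAP kinases, averaged 13.35 ± 0.16, and DUSP2 was lowest at 8.40 ± 0.62. GADD45B, a stress-induced growth regulator, read 12.11 and 12.54 in dog 2 and 13.26 and 13.43 in dog 3. Heat shock and chaperone genes stood still higher, with a median percentile of 99.2 and 13 of 14 in the top 10%. HSPA8 averaged 13.25 ± 0.13, HSP90AA1 12.76 ± 0.16, HSPH1 12.63 ± 0.28 and the mitochondrial HSPD1 7.95 ± 0.24. The 2 features named HSP70, which are outside the list, averaged 13.54 ± 0.16 and 13.10 ± 0.36.

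Matrix genes beyond the stromal list were bright. Of 27 measured, 17 lay in the top 10% and 0 in the bottom 25%. The collagen-binding SPARC stayed within 0.043 over the 4 arrays at 12.76, and the basement membrane linker NID1 averaged 12.54 ± 0.26. Fibronectin (FN1) read 12.22 and 11.75 in dog 2 and 13.09 and 12.87 in dog 3, and elastin (ELN) was lowest at 6.18 ± 0.13. Matrix proteases and their inhibitors had a median percentile of 95.7. The inhibitor TIMP2 averaged 12.45 ± 0.29, the gelatinase MMP2 12.36 ± 0.67 and the cathepsin CTSK 12.34 ± 0.36. The stromal collagenase MMP1 averaged 4.07 ± 0.16 and the stromelysin MMP3 averaged 4.93 ± 0.24, both in the bottom 25%.

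Secreted signals had a wide spread of levels. CXCL12, which holds blood progenitors and lymphocytes in tissues, averaged 13.33 ± 0.18. CCL2, which recruits monocytes, read 11.84 and 11.77 in dog 2 and 13.08 and 13.24 in dog 3, and CXCL14 averaged 11.92 ± 0.34. The neutrophil attractant CXCL8 read 10.90 and 10.59 in dog 2 and 12.03 and 12.28 in dog 3, and IL6 read 6.85 and 7.55 in dog 2 and 9.36 and 9.58 in dog 3. The dog 3 arrays were the higher for all of these, and the cytokine list's array medians ran from percentile 50.6 to 74.8. CSF2 was lowest at 5.05 ± 0.16. Of 33 growth factors and their binding proteins 28 lay above the median, led by IGFBP7 at 12.36 ± 0.37, ANGPTL4 at 11.53 ± 0.41 and PDGFD at 11.38 ± 0.52. VEGFA, the main vessel growth factor, averaged 10.25 ± 0.45, and IGFBP1, a product of liver, averaged 5.48 ± 0.079.

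Of 12 measured complement genes 9 lay above the median and 3 in the bottom 25%. CD55, which protects cells from complement, averaged 12.15 ± 0.56, the opening proteases C1S and C1R averaged 11.20 ± 0.86 and 11.20 ± 0.81, and C3 averaged 11.08 ± 0.61. C7, CFI, CD59, CFP and C6 averaged 9.82 to 8.35, in that order, and C9, C5 and C8A lay in the bottom 25%, with C8A at 4.38 ± 0.11. Cell cycle genes had 7 of 22 members above the median and 0 in the top 10%. PCNA, MCM4 and MCM6, which act in DNA replication, averaged 9.28 ± 0.17, 8.46 ± 0.26 and 8.38 ± 0.33, while the mitotic kinase CDK1 averaged 4.27 ± 0.62. The proliferation marker MKI67 read 7.96 and 6.54 in dog 2 and 8.72 and 7.34 in dog 3.

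The measured pluripotency genes and most genes of skeletal tissues were low in the ranking. Of 11 listed pluripotency genes 6 were measured, and POU5F1 and NANOG were not among them. The 6 all lay below the median, with DNMT3B at 6.54 ± 0.15, SOX2 at 6.27 ± 0.21 and LIN28B at 3.48 ± 0.16. Of 18 genes of cartilage, bone and tendon 7 lay in the bottom 25%. SPP1 (osteopontin), which macrophages also secrete, was their exception at 11.77 ± 0.33. The bone hormone BGLAP averaged 8.19 ± 0.13, the cartilage factor SOX9 7.50 ± 0.32 and bone sialoprotein (IBSP) 3.35 ± 0.13.

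**Figure D5:**
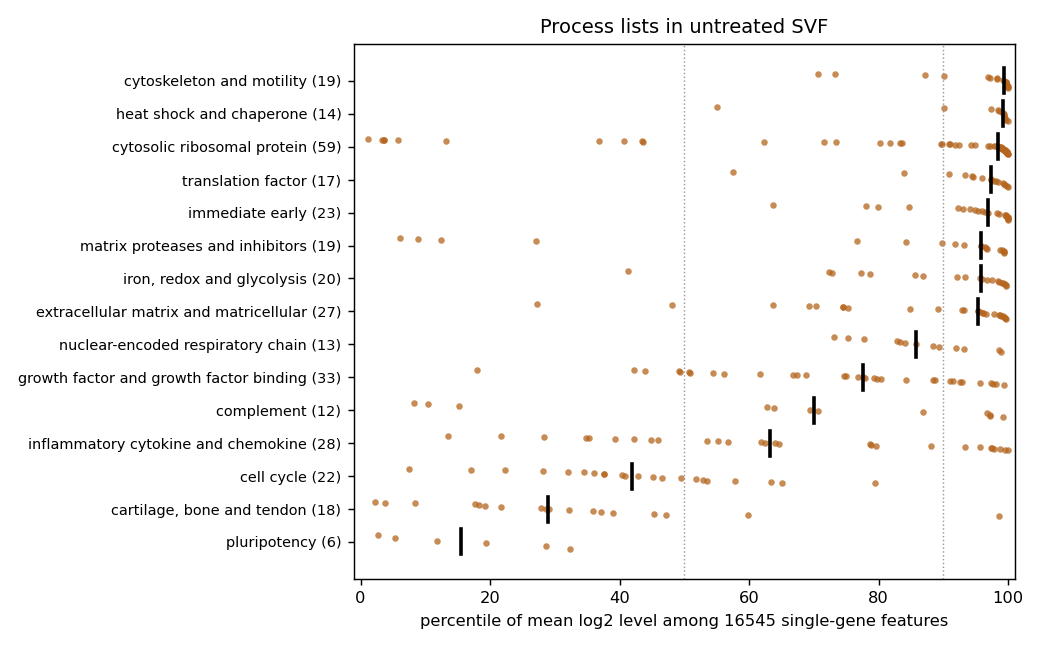
Percentile of each measured gene among the 16545 single-gene features, by process list, with list medians as black bars and the number measured in brackets. Cytoskeleton, heat shock, ribosomal, translation and immediate early lists have medians between 96.9 and 99.4, and the ribosomal list has 6 members in the bottom 25%.

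Tissues other than fat supplied a yardstick for low brightness. Of 83 measured markers of liver, nerve, muscle, epithelium, pancreas and pituitary, germ cells and eye, 55 lay in the bottom 25% and 2 above the median, with a median of 5.56 log2. List medians ran from percentile 8.997 for germ cells to 23.2 for neurons and Schwann cells. The highest was the cardiac troponin TNNT2 at 7.87 ± 0.17, followed by the apolipoprotein APOA1 at 7.73 ± 0.25. ALB (albumin) averaged 4.51 ± 0.39, the epithelial adhesion molecule EPCAM 3.81 ± 0.22 and the germ cell RNA-binding protein DAZL 3.00 ± 0.17. Set beside TNNT2, 24 of the 26 stromal genes, all 19 adipocyte genes and 19 of the 20 endothelial genes were brighter, but 3 of the 23 T and NK cell genes and 1 of the 13 neutrophil genes were. That comparison was chosen after the values were seen, and it compares probes of different genes.

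The floor of the ranking belonged to olfactory receptors, the odorant-binding receptors of the nose, which form one of the largest gene families of the dog. Their 558 features had a median of 3.78, and 97.1% of them lay in the bottom 25% of all single-gene features. They made up 69 of the lowest 100 features, and 0 reached the top 10%. Of the 10 lowest features, leaving out placeholder symbols, 9 were olfactory receptors, from OR2M9 at 2.32, and the exception was the interferon IFNA5 at 2.45. OR6B2 was the brightest receptor at 8.01. Beta-defensins, the antimicrobial peptides of epithelia, were placed much the same, with 26 of 30 features in the bottom 25%, as were 11 of 14 taste receptors. HOX genes, which fix position along the body, were mixed: 10 of 32 features lay in the bottom 25%, and HOXA6 was highest at 9.65.

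Spread among the 4 arrays did not follow brightness in a simple way. The median range over the arrays was 0.41 in the lowest decile of features, 0.49 in the highest decile and 0.33 in the top 100. Features with a range above 1 made up 3.99% of the lowest decile, 15.8% of the highest decile and 8 of the top 100. Among the top 200, the steadiest were JUN, RPL3, the phospholipase PLCB1, SPARC and RPS6, with ranges of 0.028 to 0.057. The most variable were SEMA3C, CCL2, ADIPOQ, FN1 and GADD45B, with ranges of 1.32 to 1.70. SEMA3C, a secreted guidance protein, read 11.64 and 11.20 in dog 2 and 12.90 and 12.40 in dog 3. In all 5 the arrays of one dog lay apart from those of the other, and ADIPOQ alone was higher in dog 2.

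PRP-SVF arrays of the same dogs kept much of this order after platelet-rich plasma and 6 h at 37 °C, which always went together. Their array medians, 6.76 to 6.77, all lay below the 6.80 to 6.85 of the untreated arrays. The fit below did not rescale for this. With each array centred on its median, the median difference of all features, PRP-SVF minus SVF, moved from -0.031 to 0.042. The top 100 of PRP-SVF held 90 of the 100 top features of untreated SVF. In the limma fit over all 32391 features, with Benjamini-Hochberg adjustment, 2 features (0.00617%) passed an adjusted p of 0.05, and 0 of the top 100 did, with a lowest adjusted p of 0.446. The count of 2 fell to 0 when any 1 of the 8 arrays was left out, and to 0 with same-numbered samples as a replicate block. At an unadjusted p of 0.05, 2.87% of all features were higher and 6.58% lower in PRP-SVF, and of the top 100, 1 was higher and 3 were lower. The median difference, PRP-SVF minus SVF, was -0.0020 over the top 100, against -0.016 over all single-gene features. A missed threshold with 4 arrays from 2 dogs does not show that levels were equal. The ranking used the same SVF arrays as this contrast, so the counts for the top 100 are a description.

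The largest differences within the top 100 were modest. CCL2 averaged 13.06 ± 0.54 in PRP-SVF, against 12.48 ± 0.79 in SVF, and the groups overlapped (difference 0.58, SE 0.20, limma adjusted p = 0.479). SCD averaged 12.57 ± 0.36 in PRP-SVF, against 13.07 ± 0.47 in SVF (difference -0.51, SE 0.20, limma adjusted p = 0.502). NID1 read 11.86, 12.04, 12.23 and 12.21 in PRP-SVF, against 12.31, 12.48, 12.46 and 12.91 in SVF, with no overlap (difference -0.45, SE 0.14, limma adjusted p = 0.462). The splicing factor SRRM2 also did not overlap, at 12.14 ± 0.046 in PRP-SVF and 12.53 ± 0.086 in SVF (difference -0.39, limma adjusted p = 0.446). Such separation was no mark of the top 100, where 3 features had it, against 861 of all 16545 single-gene features. DNAJB1, a partner of HSP70, averaged 12.12 ± 0.55 in PRP-SVF and 12.51 ± 0.44 in SVF.

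None of the 7 lineage markers passed in that fit. JCHAIN averaged 13.01 ± 0.26 in PRP-SVF, against 12.75 ± 0.17 in SVF (difference 0.26, SE 0.12, limma adjusted p = 0.539). ADIPOQ read 12.63 and 12.69 in dog 2 and 11.26 and 10.56 in dog 3 in PRP-SVF, against 12.73 and 12.72 in dog 2 and 11.86 and 11.38 in dog 3 in SVF (difference -0.39, SE 0.19, limma adjusted p = 0.546). Of the 19 adipocyte genes 0 passed the adjusted threshold and 13 were lower at an unadjusted p of 0.05, with a median difference of -0.58, where 6.58% of all features were lower. Of the 15 pericyte and smooth muscle genes 5 were lower at that unadjusted p, with a median difference of -0.28. Inflammatory cytokines and chemokines lay on the other side, with 11 of 28 higher at an unadjusted p of 0.05 and a median difference of 0.58, where 2.87% of all features were higher. Of the T and NK cell genes 5 of 23 were higher, with a median difference of 0.33. These lists were picked after the values were seen, and genes of other lists differed too at the unadjusted threshold. Of the extracellular matrix genes 7 of 27 were lower, as were 5 of 33 growth factor and 4 of 26 stromal genes. Of the B and plasma cell genes 3 of 15 were higher. None of the genes of these lists passed the adjusted threshold.

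The one single-gene feature that passed was PPBP, a chemokine precursor stored in platelets, and it is no bright gene of untreated SVF. In PRP-SVF it read 10.81 and 10.77 in dog 2 and 9.28 and 8.99 in dog 3. In SVF it read 7.74 and 7.32 in dog 2 and 7.30 and 6.65 in dog 3. It averaged 9.96 ± 0.96 in PRP-SVF, against 7.25 ± 0.45 in SVF at percentile 43.3 (difference 2.71, SE 0.19, limma adjusted p = 0.0295). The SE and p rest on the spread between the 2 samples of a dog in each group and do not cover a difference between dogs. That call was lost with any 1 of the 8 arrays left out (limma adjusted p from 0.0619 to 0.302), with the replicate block (limma adjusted p = 0.189) and with additive terms for dog and condition (limma adjusted p = 0.0653), while the difference stayed between 2.55 and 2.87. The other feature that passed carries no gene name in the platform annotation.

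Arrays of thawed SVF of the other dog had lower medians and were taken to have been normalized separately, so only ranks are set side by side and no difference was taken. DCN and LUM stood at percentile 99.9 or above on the untreated SVF arrays, and on the arrays of companies A, B and C they stood at 99.7 or above. ADIPOQ lay between percentiles 97.6 and 99.7 on the 4 untreated arrays, and at 52.3, 42.6 and 64.6 on the thawed arrays of companies A, B and C. RGS5 lay between 93.4 and 98.4 on the untreated arrays and at 53.4, 38.4 and 56.2 on the thawed ones, in the same order of companies. PECAM1 lay between 98.1 and 99.7 on the untreated arrays and at 88.6, 19.6 and 92.7 on the thawed ones. LYZ lay between 99.3 and 99.9 on the untreated arrays and at 96.6, 32.2 and 97.8 on the thawed ones. Company B was the lowest of the thawed arrays for each of these markers.

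The 100 top features of untreated SVF all lay in the top 10% of each untreated array, and 97, 87 and 100 of them did so on the arrays of companies A, B and C. In the array's own top 100 there were 85 to 90 of them on the untreated arrays and 53, 45 and 56 on the thawed ones. The features were chosen by their mean on the untreated arrays, so high counts there are built in. On the PRP-SVF arrays, which had no part in the choice, there were 71 to 89. Dog, company, freezing and normalization all differ at once between the untreated and the thawed arrays and cannot be told apart.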

How the data were processed

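RNA of 11 samples (6 µg each) was labelled with biotin and read on Affymetrix arrays, as the labels' protocols state. The deposited values span 1.22 to 14.8, from which they were judged to be log2 levels. Partek is named, with no version, per the submitters' processing notes. How features were summarized and normalized, and the array's genome build, was not given in the sources used here. Medians per array were 5.14 to 5.31 for the 3 thawed samples and 6.76 to 6.85 for the 8 others, so the sets were taken as normalized separately and differences were taken within the 8 only. Gene names came from the platform annotation: 16545 features named 1 gene (15947 genes), 370 several and 15476 none. Of the single-gene features 15820 matched the UU_Cfam_GSD_1.0 gene table by identifier. Coordinates, promoter and protein sequences were not analysed here. The number of arrays limits the precision.

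Features were ranked in Python 3.11.15 with pandas 2.3.3, without a filter. The 8 arrays were fitted as 4 group means (dog by condition) with limma 3.58.1 in R 4.3.3, averaging both dogs' differences. The SE and p of that fit rest on the spread between the 2 samples of a dog in each group, not between dogs. The code of that fit was tested on simulated data, and the ranking code was not. Named genes were the 30 top features, 7 markers, the 3 highest and the lowest member of each of 37 lists, the 10 lowest features, the 5 most and 5 least variable of the top 200, the 5 largest differences in the top 100 and called features. Other names were chosen after their values were seen. The members and lists were chosen with earlier results of these data known.

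Replicate numbers recur in all groups. Deviations of same-numbered arrays correlated at 0.230 in dog 2 and 0.160 in dog 3, which are only 2 pairs, and the labels state no pairing. Alternatives were the median, within-array ranks, quantile normalization, ranking all features, averaging a gene's features, each dog alone, each array left out, and other fits.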

Additional observations from a re-analysis of the deposited data

Results flagged for a closer look

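Of 173 named features examined over the 4 untreated SVF arrays, 3 had one array far from the others, where the gap to the nearest array divided by the whole range exceeded Dixon's critical value. Chance gives about 1 in 20 such features. RPL19 had a ratio of 0.931: dog 2 replicate 2 read 13.24, and the others read 13.11 to 13.12. CLEC1B, a platelet receptor, had a ratio of 0.856: dog 2 replicate 1 read 4.95, and the others read 4.77 to 4.80. TPT1, the translationally controlled tumour protein, had a ratio of 0.837: dog 3 replicate 2 read 13.15, and the others read 12.93 to 12.96. No array was flagged more than once. For the difference between PRP-SVF and SVF, a limma interaction test between the dogs called 0 features after adjustment and 619 at an unadjusted p of 0.05.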

How the results depend on the processing

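Ranking all 32391 features in place of the single-gene ones changed the most: 18 of the top 100 features and 2 ribosomal features remained in the top 100, because features with no gene name entered. That ranking put the list medians at percentile 50.1 for lymphatic endothelial, 47.9 for mesothelial, 50.3 for T and NK cell, 53.2 for B and plasma cell, 56.2 for mast cell, 40.7 for neutrophil, 50.03 for platelet and 31.5 for erythroid genes. With the dog 3 arrays alone the adipocyte median was 90.5. With the dog 2 arrays alone the medians were 43.1 for lymphatic endothelial, 86.7 for antigen presentation, 20.0 for neutrophil and 41.4 for platelet genes. Leaving out each array in turn, the mesothelial median ran from 34.3 to 37.6 and the antigen presentation median from 87.7 to 91.1. The causes were not tested. Of all list medians under all alternatives 367 stayed within 1 SD of their array medians and 40 moved.

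The count of features called between PRP-SVF and SVF was 2 in the fit as reported, 1 with only features above the median level, 1 with dog and condition as additive terms, and 0 with the same-numbered samples as a replicate block. It was 0 to 0 with each of the 8 arrays left out. The 5 named differences in the top 100 kept their direction and their side of the threshold in all 14 alternatives. Rescaling moved the median difference of all features from -0.031 to 0.042 with centred arrays and to 8.6e-05 with quantile normalization.

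Limits: brightness does not measure mRNA amount, the 4 arrays come from 2 dogs described alike, and genes whose probes are dim cannot be told from genes that are not transcribed.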

Other observations

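Most of the brightest signal of untreated SVF carries no gene name. Among all 32391 features, 79 of the top 100 by mean level had no gene in the platform annotation, 3 had several and 18 had 1, and the first single-gene feature stood at rank 14. The brightest feature averaged 14.77. As a whole the unnamed features were dimmer, with a median of 5.78, against 7.67 for single-gene features.

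Of 346 solute carrier features 22 lay in the top 10%, and the amino acid transporter SLC38A2 was highest at 12.92. Of 158 zinc finger features 4 lay in the top 10%, with ZNF532 highest at 11.68. Keratins had 34 of 50 features in the bottom 25%, and keratin-associated proteins of hair had 6 of 7.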
